A study of Mus musculus with 24 samples.

Results

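This comparison sets C2C12 cells 6 hours after the start of differentiation against growing C2C12 myoblasts 1 day before it, called 6 hours and Day -1. Its members are the 6 arrays whose labels name these time points, 3 for each, of 24 arrays in the series, and 12414 of 45101 probe sets reached a mean intensity of at least 100 in either group. C2C12 is a line of myoblasts from mouse skeletal muscle that withdraws from the cell cycle and fuses into myotubes when serum is lowered at high density. The study followed RNA on Affymetrix mouse arrays over 8 time points up to Day 5 after induction, with 3 arrays each. By the labels, cells grew in medium with 10% serum, reached 50% confluency by Day -1 and 90% by Day 0, and differentiated in medium with 2% serum, a figure on which the sources differ. The confluency at 6 hours is not labelled. The 6 hours cells had thus received the low-serum medium 6 hours earlier after growth to 90% confluency, whereas the Day -1 cells grew at low density in full serum. Serum and density differ together between the groups and cannot be told apart here. C2C12 is 1 cell line, and these arrays hold no control at matched density. Nothing in the labels says that replicates were separate cultures, so the p-values measure the spread between arrays, which may be technical.

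A growing myoblast is held in the cell cycle by serum factors that act through receptor tyrosine kinases and ERK, and the myogenic factors MYOD1 and MYF5 are already made in it. Commitment begins when MYOG is made, the cell leaves the cycle for good, and genes of contraction and fusion are switched on. The comparison asks how RNA in cells at the start of differentiation differs from that in cells still growing.

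In all, 508 of 7213 genes were higher at 6 hours (7.04%) and 399 were lower (5.53%), at an adjusted p under 0.05 by limma's moderated t with Benjamini-Hochberg adjustment. By probe set 711 were higher (5.73%) and 525 were lower (4.23%), of 1236 in either direction (9.96%), and 3218 passed at an unadjusted p under 0.05. A change is given below as the log2 fold change of 6 hours over Day -1 with its SE, with 3 arrays in each group throughout, and intensities are on the linear scale of the deposited table. The median of called genes was 0.72 among the higher and -0.68 among the lower, and 140 of the higher and 77 of the lower genes changed at least 2-fold. The median over all genes tested was -0.01 and the smallest change that passed was 0.38. The arrays of the groups did not overlap for any of the 907 called genes (12.6%), and without any test 1384 genes (19.2%) lay wholly higher and 1282 (17.8%) wholly lower at 6 hours. Counts over a list of genes are read against these shares of all genes. A gene with a mean under 100 in 1 group was tested only through the other group and had to differ that way. Among the genes named below this holds on Day -1 for Hdac9, Hey1, Mymk, Mymx, Tagln, Myl9, Postn, Ltbp2, Tgfb2, Cx3cl1, Cxcl12, Btg2, Egr3 and Fbxo32, and at 6 hours for Il33, Maff, Etv5, Spred2, E2f5, Add2, Dkk2, Pag1, Pparg and Slc14a1, and further cases are given with their lists. The same holds on Day -1 for Glipr1 and Mest and at 6 hours for Csn3 and Lims2, which are named at the end. With 3 arrays a group the smallest p of an exact permutation test is 0.1, which is why limma's fit across all probe sets was used for single genes.

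**Figure D1:**
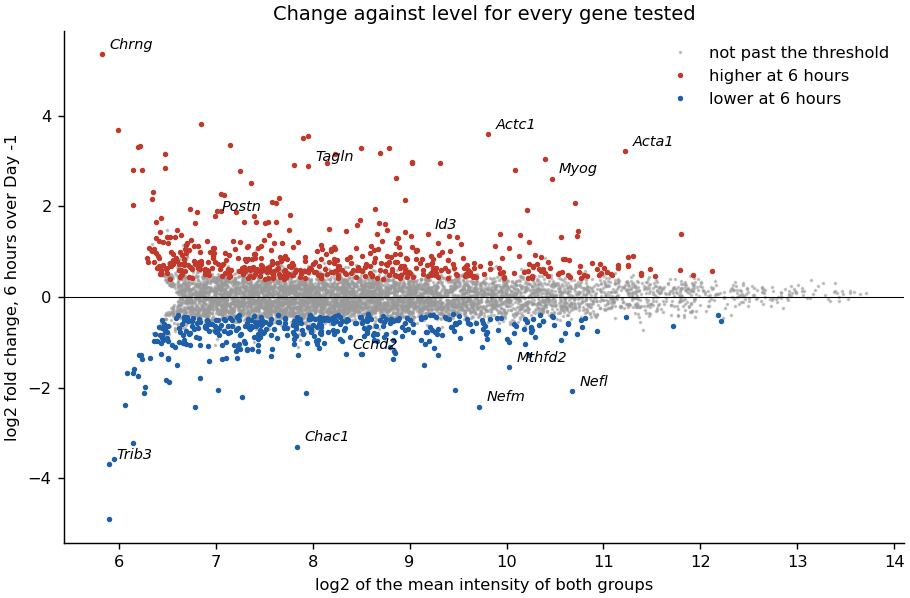
Each point is 1 of the 7213 genes tested, with log2 of its mean intensity over both groups on the x axis and its log2 fold change of 6 hours over Day -1 on the y axis. Red points are the 508 genes higher at 6 hours, blue points the 399 lower and grey points the rest, and the red points reach farther from 0 than the blue ones.

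Pearson's r of log2 intensities within a group lay between 0.968 and 0.994 at 6 hours and between 0.977 and 0.993 on Day -1. Between the groups it was 0.935 to 0.967. The deviations of 6 hours replicate 2 and of Day -1 replicate 1 from their group means correlated at 0.82. Between 25.4% and 27.0% of the probe sets of each of the 24 arrays read 100 or more. The count of called genes depended on single arrays. It was 345 without 6 hours replicate 1, 1730 without 6 hours replicate 2, 438 without 6 hours replicate 3, 421 without Day -1 replicate 1 and 337 without Day -1 replicate 3. Of the genes given as not passing, Chrnd, Cryab, Hdac9, Hmgcs1, Idi1, Kdm1a, Sox9, Tcf12 and Vcl passed without 6 hours replicate 2, and Hdac9, Kdm1a and Sox9 also without Day -1 replicate 2. Without 6 hours replicate 2 there was also 1 fall among sarcomere genes and among CDK inhibitors and 1 rise among genes of DNA replication, where none passed with all arrays. Control RNAs added to each hybridization were higher at 6 hours in 16 of 16 probe sets tested, with a median log2 fold change of 0.41, between 0.30 and 0.66, and 5 of them passed the threshold. Changes of that size therefore also occurred in RNA that does not come from the cells, and their part in small changes was not tested. In bulk RNA, more cells that make a transcript and more of it per cell cannot be told apart.

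Of 10 markers of myoblasts, 9 had a mean of at least 100 and their summed intensity lay between 16257 and 18279 at 6 hours, against 12415 to 13695 on Day -1. No marker of cardiac muscle of 10 reached 100, with sums of 54.9 to 72.0 at 6 hours, against 85.4 to 96.0 on Day -1. The summed markers of adipocytes were lower, 398 to 483 at 6 hours, against 566 to 717 on Day -1, with 2 of 8 markers at 100 or more, of which Pparg fell. Those of osteoblasts or chondrocytes were 215 to 253 at 6 hours, against 262 to 333 on Day -1. Only 1 of these 9 markers was at 100 or more, Sox9, which did not pass. For fibroblasts the sums overlapped, at 6902 to 9107 at 6 hours, against 5716 to 7318 on Day -1, with 3 of 10 markers at 100 or more and Thy1, Lum and Dpt near background. Those 3 were Pdgfrb, Col1a1 and Col3a1, all wholly higher at 6 hours, with a median log2 fold change of 0.70. Of them 2 rose, and the count of 2 was 1 without 6 hours replicate 1 or 3 and 0 without Day -1 replicate 1 or 3. The labelled cell type thus has its markers in both groups, and no other marker list had more than 4 members at 100 or more.

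Genes of the myogenic program and of contraction rose. Myog, the factor that commits myoblasts to differentiate, had intensities of 2324, 2364 and 2595 at 6 hours, against 485, 319 and 406 on Day -1. Every 6 hours array was above every Day -1 array and the change was 6.10-fold, or 2.61 ± 0.16, adjusted p = 0.00011. Among 27 regulators of myogenesis 19 were tested, 11 rose, none fell, and the median was 0.50, against -0.01 over all genes. The share that rose was 57.9%, beside 7.04% of all genes tested, and 3 of the 19, Smyd1, Rbm24 and Eya4, were under 100 on Day -1 and had to be higher. The count of 11 was 5 without 6 hours replicate 1 or 3 or Day -1 replicate 1 or 3.

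The changes of the early myogenic factors were smaller in value, and their difference from Myog was not tested. Myod1, which opens muscle genes in myoblasts, had 939.7, 968 and 906 at 6 hours, against 658, 657 and 727 on Day -1 (0.46 ± 0.10, adjusted p = 0.028). Myf5, its partner in growing myoblasts, had 858, 998 and 851 at 6 hours, against 671, 583 and 636 on Day -1 (0.52 ± 0.11, adjusted p = 0.030). Neither pair of groups overlapped, but both calls depended on single arrays. That of Myod1 was lost without any 1 array but 6 hours replicate 2 (adjusted p between 0.065 and 0.13), and that of Myf5 was lost without any 1 array but 6 hours replicate 2 (adjusted p between 0.071 and 0.11). Smyd1, a methyltransferase needed for sarcomere assembly, was nearly dark on Day -1, with 135, 98.6 and 174 at 6 hours, against 10.1, 14.1 and 15.7 on Day -1 (3.34 ± 0.24, adjusted p = 0.00022). Rbm24, a splicing factor of muscle transcripts, had 99.3, 141 and 129 at 6 hours, against 26.9, 15.7 and 12.7 on Day -1 (2.80 ± 0.27, adjusted p = 0.0010). Eya4, a cofactor of homeobox factors, had 267, 357 and 271 at 6 hours, against 96.4, 86.9 and 100.2 on Day -1 (1.65 ± 0.14, adjusted p = 0.00055). These 3 genes kept their calls without each array in turn, but each was tested only through its 6 hours level.

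Cdon, a surface receptor that promotes myogenesis upon cell contact, had 623, 558 and 715 at 6 hours, against 319, 362 and 300.0 on Day -1 (0.95 ± 0.13, adjusted p = 0.0048), with no overlap and on Day 0 301, 304 and 301. Mef2c, a partner of the myogenic factors in activating late genes, had 251, 172 and 248 at 6 hours, against 97.8, 139 and 112 on Day -1 (0.94 ± 0.19, adjusted p = 0.021), and its call was lost without 6 hours replicate 1 or 3 or Day -1 replicate 1 or 3 (adjusted p between 0.073 and 0.093). The change of Mef2a was 0.58 ± 0.12, adjusted p = 0.024, that of Vgll2 0.50 ± 0.12, adjusted p = 0.036 and that of Six4 0.55 ± 0.14, adjusted p = 0.046, with no overlap between the groups in any of them. The call of Mef2a was lost without 6 hours replicate 1 or 3 or Day -1 replicate 1 or 3 (adjusted p between 0.089 and 0.11). For Vgll2 it was lost without any 1 array but 6 hours replicate 2 (adjusted p between 0.081 and 0.11), and for Six4 lost without any 1 array but 6 hours replicate 2 (adjusted p between 0.076 and 0.19). The partners of the myogenic factors did not pass, with 0.19 for Tcf3 (adjusted p = 0.34), 0.33 for Tcf4 (adjusted p = 0.090) and 0.37 for Tcf12 (adjusted p = 0.24). Nor did Mef2d at 0.38 (adjusted p = 0.21), Kdm1a at 0.48 (adjusted p = 0.057), Srf at 0.22 (adjusted p = 0.50), Mrtfa at -0.19 (adjusted p = 0.54) or Eya1 at -0.27 (adjusted p = 0.36). Myf6, the factor of late muscle fibres, and the satellite cell factors Pax3 and Pax7 stayed under 100 in both groups, as did Boc, Ankrd2, Csrp3 and Myocd.

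Of 54 genes of the sarcomere and contraction, 28 were tested, 26 rose and none fell, and their median was 2.80, beside 7.04% of all genes tested that rose. For 12 of the 28 the mean was under 100 on Day -1, so they entered the test only through 6 hours and had to be higher there, Tnnt1, Tnnt3, Tnnc2, Mybph and Klhl41 among them. The genes measured in both groups showed the change as well. Acta1, the actin of adult skeletal muscle, had 4074, 3917 and 4968 at 6 hours, against 545, 362 and 504 on Day -1 (3.21 ± 0.18, adjusted p = 6.5e-05). Actc1, the actin of embryonic muscle and of heart, had 1460.1, 1782 and 1734 at 6 hours, against 149, 119 and 148 on Day -1 (3.58 ± 0.14, adjusted p = 1.8e-05). Myh3, the embryonic myosin heavy chain, had 1103, 763 and 1537 at 6 hours, against 121, 159.5 and 144 on Day -1 (2.95 ± 0.24, adjusted p = 0.00047). In each of these genes the lowest 6 hours array stood far above the highest Day -1 array.

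Troponin, which makes contraction depend on calcium, rose in several subunits. Tnnt1 had 179.8, 242 and 221 at 6 hours, against 10.9, 12.6 and 24.9 on Day -1 (3.82 ± 0.29, adjusted p = 0.00033). Tnnt3 had 414, 427 and 472 at 6 hours, against 42.0, 34.7 and 39.0 on Day -1 (3.51 ± 0.12, adjusted p = 1.0e-05). Tnnc2, the subunit that binds calcium in fast fibres, had 702, 869 and 825 at 6 hours, against 111, 59.4 and 84.1 on Day -1 (3.28 ± 0.22, adjusted p = 0.00017). None of the 3 overlapped, and all Day -1 arrays of Tnnt1 and Tnnt3, the subunits that bind tropomyosin, were below 100. Tnni1 (2.99 ± 0.14, adjusted p = 3.7e-05), Mylpf, the fast regulatory light chain (3.04 ± 0.19, adjusted p = 0.00011), Mybph, which binds myosin (3.29 ± 0.15, adjusted p = 3.7e-05), and Klhl41, which stabilizes nebulin (3.19 ± 0.14, adjusted p = 3.7e-05), also rose. Des, the intermediate filament of muscle that myoblasts already make, had 2211, 2284 and 2479 at 6 hours, against 1735, 1669 and 1546 on Day -1 (0.49 ± 0.11, adjusted p = 0.025), and its call was lost without any 1 array but 6 hours replicate 2 (adjusted p between 0.051 and 0.11). Tpm3 at 0.12 (adjusted p = 0.66) and Cryab at -0.40 (adjusted p = 0.18) were the members that did not pass. Late genes of the list such as Myh2, Myh4, Mybpc2, Myoz1 and Tcap were under 100 in both groups.

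**Figure D2:**
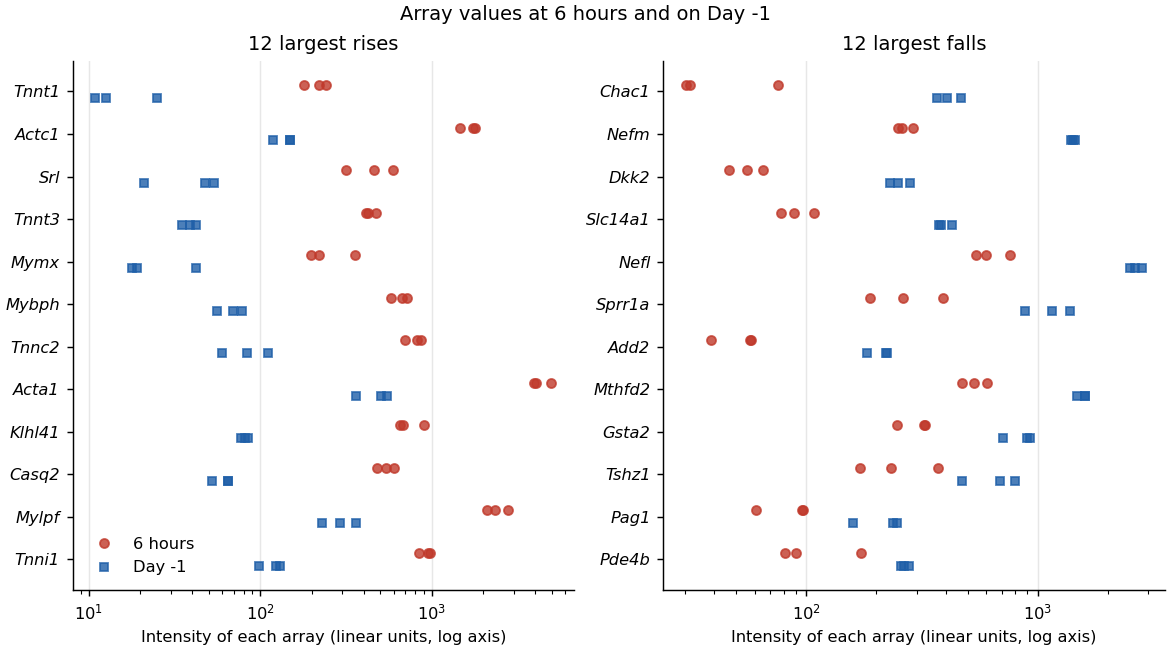
Points are the intensities of single arrays on a log axis for the 12 genes with the largest rises (left) and the 12 with the largest falls (right) among called genes with a mean of at least 200 in the higher group. Red circles are 6 hours and blue squares Day -1, and the groups are separate in every row, for example at 3917 to 4968 at 6 hours against 362 to 545 on Day -1 for Acta1.

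Calcium handling and the neuromuscular junction were covered by 29 genes, of which 17 were tested, 11 rose and none fell, with a median of 0.92, beside 7.04% of all genes that rose. For 6 of the 17, among them Chrng, Srl, Atp2a1 and Casq2, the mean was under 100 on Day -1, so they entered the test only through 6 hours and had to be higher there. Chrng, the fetal subunit of the acetylcholine receptor, had 103, 86.8 and 144 at 6 hours, against 2.85, 2.60 and 2.57 on Day -1. It lay at background on all Day -1 arrays and well above it on all 6 hours arrays, and its fitted change of 5.35 ± 0.18, adjusted p = 1.0e-05 depends on that background, since a second probe set of the gene gave 3.66. Without 6 hours replicate 3 the mean of Chrng was under 100 and the gene was not tested. Srl, a calcium-binding protein of the sarcoplasmic reticulum, had 459.9, 317 and 590.4 at 6 hours, against 21.1, 47.8 and 53.5 on Day -1 (3.55 ± 0.37, adjusted p = 0.0013). Atp2a1, the calcium pump of fast fibres, had 145, 139 and 184 at 6 hours, against 17.6, 20.2 and 27.7 on Day -1 (2.85 ± 0.19, adjusted p = 0.00017). Casq2, which stores calcium in the reticulum, rose by 3.16 ± 0.14, adjusted p = 3.7e-05 on a probe set that can share signal with related transcripts. The other receptor subunits did not pass, at 0.27 for Chrna1 (adjusted p = 0.12), 0.27 for Chrnb1 (adjusted p = 0.16) and 0.42 for Chrnd (adjusted p = 0.33), and neither did the receptor kinase Musk at 0.26 (adjusted p = 0.31). Within the receptor, therefore, 1 subunit passed and 3 tested subunits did not, and the difference between subunits was not tested.

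Sequences just before and at the start of 2 of these genes are shown because they hold letters that factors of this pathway are known to read. They are RefSeq windows of 300 bases on build GRCm38.p6, 250 before the start and 50 from it, read 5′ to 3′ on the strand of the gene. In Chrng (chr1:87205561-87205860, plus strand) capitals mark 2 copies of the E-box CAGCTG, a letter group bound by myogenic factors. In Actc1 (chr2:114052826-114053125, minus strand) capitals mark a CArG box, the element bound by SRF.
Chrng: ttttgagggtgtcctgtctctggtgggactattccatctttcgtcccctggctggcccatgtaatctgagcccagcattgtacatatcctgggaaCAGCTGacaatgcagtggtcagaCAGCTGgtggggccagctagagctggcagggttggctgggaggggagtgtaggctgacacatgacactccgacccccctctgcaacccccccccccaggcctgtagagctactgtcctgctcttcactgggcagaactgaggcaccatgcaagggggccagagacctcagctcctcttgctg
Actc1: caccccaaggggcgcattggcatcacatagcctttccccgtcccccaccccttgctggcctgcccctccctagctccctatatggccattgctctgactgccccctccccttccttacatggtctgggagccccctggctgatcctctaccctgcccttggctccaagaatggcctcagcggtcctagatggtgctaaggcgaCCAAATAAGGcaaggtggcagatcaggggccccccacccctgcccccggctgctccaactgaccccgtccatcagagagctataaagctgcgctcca
The E-box CAGCTG, which reads the same on both strands, stood in the window of 11 of 23 tested sarcomere genes with a window (47.8%) and of 5 of 10 of the calcium and junction genes (50.0%), against 18.3% of all genes with a window. The E-box CACCTG, searched on both strands, stood in 7 of 23 sarcomere genes (30.4%) and in 2 of 10 calcium and junction genes (20.0%), against 22.6% of all. A CArG box stood in 3 of 23 sarcomere genes (13.0%) and in 0 of 10 of the others, against 1.81% of all. These matches describe the letters of the windows only.

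Genes of cell fusion rose in part. Mymk, the membrane protein that drives fusion, had 455, 515 and 532 at 6 hours, against 69.3, 43.0 and 88.2 on Day -1 (2.96 ± 0.24, adjusted p = 0.00044). Mymx, its small partner, had 197, 355 and 221 at 6 hours, against 42.4, 17.9 and 19.2 on Day -1 (3.35 ± 0.35, adjusted p = 0.0014). Ncam1, an adhesion molecule of myoblasts, had 513, 468 and 675 at 6 hours, against 140.1, 180.0 and 185 on Day -1 (1.71 ± 0.17, adjusted p = 0.0012). All 3 were separate between the groups. Of 15 tested genes of fusion and adhesion 5 rose (33.3%, beside 7.04% of all genes) and none fell, with a median of 0.27. The others that rose were the integrins Itga7 (0.64 ± 0.17, adjusted p = 0.049), lost without 6 hours replicate 1 or 3 or Day -1 replicate 1 or 3 (adjusted p between 0.14 and 0.18), and Itgb1 (0.88 ± 0.20, adjusted p = 0.030), lost without 6 hours replicate 1 or 3 or Day -1 replicate 1 or 3 (adjusted p between 0.074 and 0.13). The cadherin of myoblasts, Cdh15, did not pass at 0.23 (adjusted p = 0.28). The count of 5 was 3 without 6 hours replicate 1 or 3 or Day -1 replicate 1 or 3.

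Of 12 tested inhibitors of myogenic differentiation 3 rose, beside 7.04% of all genes, and 1 fell (8.33%, beside 5.53%), and the median was 0.26. The count of 1 was 0 without 6 hours replicate 1 or 3 or Day -1 replicate 1 or 3 and 2 without 6 hours replicate 2 or Day -1 replicate 2. Id3, which sequesters the partners of MYOD1, had 722, 1097 and 715 at 6 hours, against 351, 259.9 and 346 on Day -1 (1.39 ± 0.20, adjusted p = 0.0055). Id2, of the same family, had 834, 1048 and 991 at 6 hours, against 581, 528 and 649.8 on Day -1 (0.71 ± 0.13, adjusted p = 0.016), and its call was lost without 6 hours replicate 3 or Day -1 replicate 1 (adjusted p between 0.061 and 0.062). Hey1, a repressor downstream of Notch, had 132, 116 and 113 at 6 hours, against 60.1, 76.4 and 68.6 on Day -1 (0.82 ± 0.13, adjusted p = 0.0077). For these 3 genes all 6 hours arrays were above all Day -1 arrays. Id1 read 491, 775 and 562 at 6 hours, against 481, 323 and 455 on Day -1, with a narrow gap between the groups, and did not pass at 0.53 (adjusted p = 0.16).

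Snai2, a repressor that keeps MYOD1 from late targets, had 1304, 1160.2 and 1186 at 6 hours, against 1699.9, 1625 and 1596 on Day -1 (-0.43 ± 0.10, adjusted p = 0.036), and its call was lost without any 1 array but 6 hours replicate 2 (adjusted p between 0.069 and 0.14). The remaining members did not pass. Hdac9 was at 0.91 (adjusted p = 0.062) and Sox9 at -0.46 (adjusted p = 0.078), the nearest to the threshold. Hes1 was at 0.29 (adjusted p = 0.27), Ezh2 at -0.22 (adjusted p = 0.29), Zeb1 at 0.22 (adjusted p = 0.21), Zeb2 at 0.09 (adjusted p = 0.72) and Bhlhe40 at -0.03 (adjusted p = 0.89). Twist1 and Msx1 were under 100 in both groups. The rise of Id3 and the rise of Myog were thus present in the same RNA, and whether in the same cells cannot be told from these arrays.

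Genes of the actin cytoskeleton rose in a subset. Tagln, an actin-binding protein of smooth muscle and of spreading cells, had 319, 557 and 434 at 6 hours, against 65.4, 40.3 and 72.5 on Day -1 (2.89 ± 0.27, adjusted p = 0.00077), and on Day 0 33.6, 46.4 and 30.0. Acta2, the smooth muscle actin, which is also transient in early skeletal muscle, had 5051, 5368 and 5039.9 at 6 hours, against 2324, 1523 and 2130.4 on Day -1 (1.39 ± 0.16, adjusted p = 0.0024) on a probe set that can share signal with other actins. Myl9, a myosin light chain of nonmuscle and smooth muscle cells, had 199, 266 and 228 at 6 hours, against 76.2, 43.4 and 74.9 on Day -1 (1.87 ± 0.23, adjusted p = 0.0029). In all 3 the groups were separate. Of 28 tested targets of SRF and YAP 7 rose and 1 fell, beside 7.04% and 5.53% of all genes, with a median of 0.31. For 3 of the 28, Tagln among them, the mean was under 100 on Day -1, so they had to be higher at 6 hours. Those 7 rises were 5 without 6 hours replicate 1 or 3 or Day -1 replicate 1 or 3. They were 6 without Day -1 replicate 2 and 8 without 6 hours replicate 2. Ankrd1 at 0.11 (adjusted p = 0.54), Ccn1 at -0.11 (adjusted p = 0.65) and Vcl at 0.39 (adjusted p = 0.10) did not pass. Actb, counted among the 7, rose on 1 of its 5 probe sets, with 0.15 as the lowest of them. No change is therefore given for the gene. The fall of Amotl1 (-0.50 ± 0.11, adjusted p = 0.027) was lost without any 1 array but 6 hours replicate 2 (adjusted p between 0.053 and 0.12).

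The summed markers of smooth muscle were 7877 to 8540 at 6 hours, against 3597 to 4459 on Day -1. That sum was carried by Acta2, Tagln and Des, which skeletal myoblasts also make, and the defining markers Myh11, Cnn1, Myocd and Lmod1 were at background in both groups.

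Matrix genes were higher in many members. Of 36 tested, 16 rose (44.4%, beside 7.04% of all genes) and 1 fell (2.78%, beside 5.53%), with a median of 0.43. Of the 36, 23 lay wholly higher at 6 hours (63.9%), against 19.2% of all genes. Postn, a matricellular protein of remodelling tissue, had 194, 204 and 191 at 6 hours, against 63.0, 51.4 and 57.9 on Day -1 (1.78 ± 0.11, adjusted p = 0.00014). Ogn, a small proteoglycan, had 662, 662 and 689 at 6 hours, against 269, 261 and 289.8 on Day -1 (1.30 ± 0.10, adjusted p = 0.00033). Mmp14, a membrane protease that activates MMP2, had 631, 709 and 785 at 6 hours, against 335, 319.6 and 338 on Day -1 (1.09 ± 0.11, adjusted p = 0.0014). The groups were separate in all 3, and their calls held without each array in turn. Col1a1, the main chain of type I collagen, had 442, 573 and 602 at 6 hours, against 369, 337 and 285 on Day -1 (0.70 ± 0.16, adjusted p = 0.030), and its call was lost without 6 hours replicate 3 or Day -1 replicate 1, 2 or 3 (adjusted p between 0.054 and 0.12). Nid1, which links laminin to type IV collagen, fell, with 1385, 1275 and 1405 at 6 hours, against 1949.6, 2480.3 and 2028 on Day -1 (-0.66 ± 0.12, adjusted p = 0.016), a call lost without 6 hours replicate 1 or Day -1 replicate 3 (adjusted p between 0.061 and 0.070). The count of 16 was 7 without 6 hours replicate 1 or 3, 8 without Day -1 replicate 1 and 6 without Day -1 replicate 3. The fibroblast markers at 100 or more, 2 of which are also matrix genes, moved the same way, and their part in these rises was not tested.

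Genes of TGF-beta and Notch signalling rose in part. Ltbp2, a binding protein of microfibrils, had 266, 224 and 355 at 6 hours, against 69.4, 113 and 85.7 on Day -1 (1.66 ± 0.22, adjusted p = 0.0040). Tgfb2, a TGF-beta ligand that inhibits myoblast differentiation, had 129, 149 and 131 at 6 hours, against 65.5, 67.8 and 76.4 on Day -1 (0.96 ± 0.11, adjusted p = 0.0026). Grem1, a secreted antagonist of BMPs, had 425, 590.2 and 406 at 6 hours, against 222, 131 and 173 on Day -1 (1.45 ± 0.22, adjusted p = 0.0070). None of these groups overlapped. Of 21 tested genes of the TGF-beta and BMP pathway 4 rose, beside 7.04% of all genes, and none fell, with a median of 0.20. Those 4 rises were 7 without 6 hours replicate 2 and 3 without any other 1 array. For 2 of the 21, Ltbp2 and Tgfb2, the mean was under 100 on Day -1, so they had to be higher at 6 hours. Of the 21, 4 lay wholly higher at 6 hours, a share near the 19.2% of all genes. Of 13 tested genes of the Notch pathway 3 rose (23.1%, beside 7.04% of all genes) and none fell, with a median of 0.29. Hes6, which favours myogenesis by opposing HES1, had 333, 389 and 334 at 6 hours, against 173, 154 and 196 on Day -1 (1.01 ± 0.13, adjusted p = 0.0034). Notch1 itself changed by 0.48 ± 0.11, adjusted p = 0.036, a call lost without 6 hours replicate 1 or 3 or Day -1 replicate 1 or 3 (adjusted p between 0.092 and 0.14). Pdgfrb, the receptor for PDGF-BB and a marker of fibroblasts and mural cells, had 1002, 783 and 1298 at 6 hours, against 390.0, 559 and 403 on Day -1 (1.18 ± 0.21, adjusted p = 0.014), a call lost without 6 hours replicate 1 or Day -1 replicate 1 or 3 (adjusted p between 0.055 and 0.075).

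Among 9 tested chemokines and cytokines 3 rose (33.3%, beside 7.04% of all genes) and 1 fell (11.1%, beside 5.53%). The count of 3 was 1 without Day -1 replicate 1 or 3. Cx3cl1, a membrane-bound chemokine, had 98.6, 130.2 and 141 at 6 hours, against 52.2, 52.5 and 52.9 on Day -1 (1.21 ± 0.15, adjusted p = 0.0026). Il33, an alarmin, had 51.4, 25.8 and 43.7 at 6 hours, against 135, 145 and 148 on Day -1 (-1.88 ± 0.24, adjusted p = 0.0032). The other rises were Csf1, a call lost without 6 hours replicate 1 or 3 or Day -1 replicate 1 or 3 (adjusted p between 0.053 and 0.085), and Cxcl12, a call lost without 6 hours replicate 1 or Day -1 replicate 1, 2 or 3 (adjusted p between 0.071 and 0.12). For Cx3cl1 and Cxcl12 the mean was under 100 on Day -1, and for Il33 it was under 100 at 6 hours. Each of them was tested only through the group where it is higher, so its direction was fixed.

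**Figure D3:**
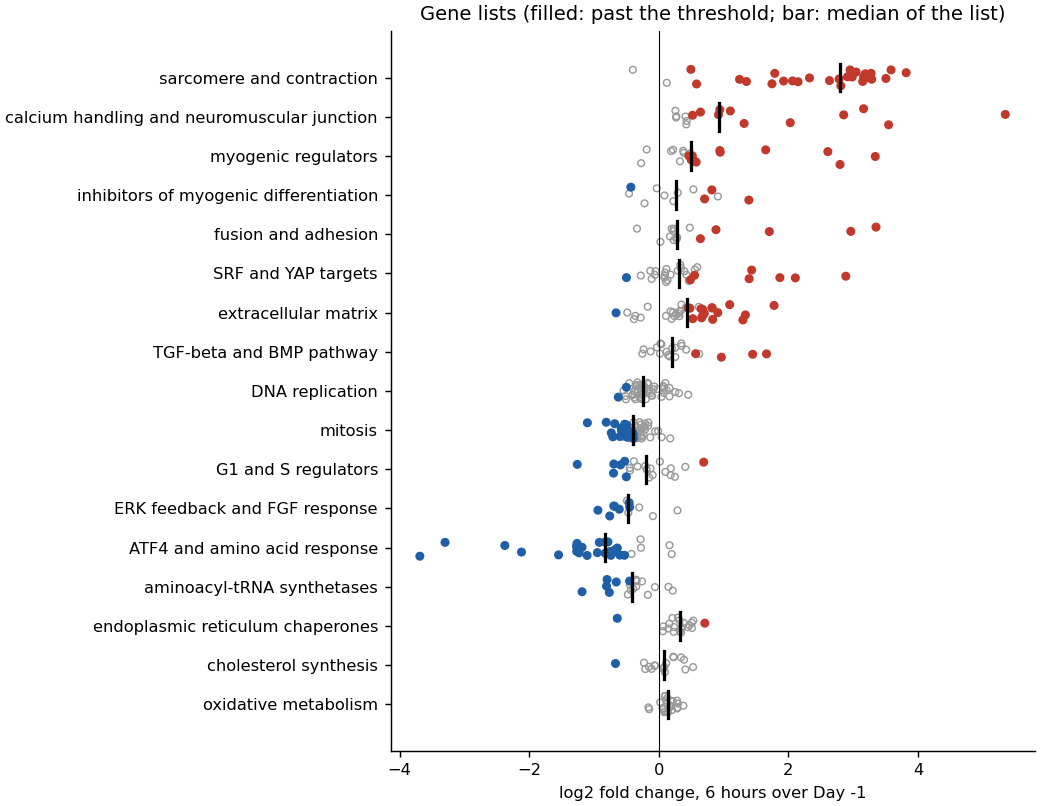
Each point is 1 gene of the list named at its left, placed on the x axis by its log2 fold change of 6 hours over Day -1, with filled points past the threshold and a bar at the median of the list. Sarcomere genes lie farthest to the right, with a median of 2.80, and genes of the ATF4 and amino acid response farthest to the left, with a median of -0.83.

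Genes of the amino acid response fell in most tested members. ATF4 is a factor made when amino acids are short or proteins misfold, and it turns on genes of amino acid synthesis, uptake and tRNA charging. Of 28 tested genes of this response 23 fell and none rose, beside 5.53% of all genes tested, with a median of -0.83, and 24 lay wholly lower at 6 hours, against 17.8% of all. For 7 of the 28, Trib3, Chac1, Pck2, Cth, Aldh18a1, Slc1a4 and Slc1a5, the mean was under 100 at 6 hours, so they entered the test only through Day -1 and had to be lower at 6 hours. Trib3, a pseudokinase that feeds back on ATF4, had 6.92, 9.26 and 9.52 at 6 hours, against 119, 127 and 86.3 on Day -1 (-3.69 ± 0.19, adjusted p = 4.3e-05). Chac1, which degrades glutathione, had 31.5, 75.7 and 30.3 at 6 hours, against 465, 407 and 366 on Day -1 (-3.30 ± 0.33, adjusted p = 0.0011). Pck2, the mitochondrial enzyme that makes phosphoenolpyruvate, had 19.3, 20.1 and 25.3 at 6 hours, against 119, 117 and 99.6 on Day -1 (-2.38 ± 0.14, adjusted p = 0.00010). All 3 were far apart between the groups, with 6 hours arrays of Trib3 near background. The count of 23 was 13 without 6 hours replicate 1 and 15 without Day -1 replicate 3.

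The windows of these 3 genes are shown because each holds 1 match to TGATGNAA, the letters of the amino acid response element that ATF4 and its partners read. They are again RefSeq windows on GRCm38.p6, for Trib3 at chr2:152344011-152344310 on the minus strand, for Chac1 at chr2:119350992-119351291 on the plus strand and for Pck2 at chr14:55540016-55540315 on the plus strand. Capitals mark the match, which in all 3 lies on the opposite strand.
Trib3: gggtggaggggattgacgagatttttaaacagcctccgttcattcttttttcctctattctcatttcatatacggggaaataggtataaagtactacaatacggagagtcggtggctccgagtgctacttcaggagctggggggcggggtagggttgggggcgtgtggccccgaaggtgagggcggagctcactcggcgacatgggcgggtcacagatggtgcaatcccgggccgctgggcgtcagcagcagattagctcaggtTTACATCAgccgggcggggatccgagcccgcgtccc
Chac1: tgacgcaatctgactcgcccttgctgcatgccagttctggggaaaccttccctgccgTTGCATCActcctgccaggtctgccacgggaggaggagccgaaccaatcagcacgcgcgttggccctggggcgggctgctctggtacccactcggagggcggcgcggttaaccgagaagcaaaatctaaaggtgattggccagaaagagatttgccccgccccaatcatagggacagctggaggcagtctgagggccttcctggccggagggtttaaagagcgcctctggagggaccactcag
Pck2: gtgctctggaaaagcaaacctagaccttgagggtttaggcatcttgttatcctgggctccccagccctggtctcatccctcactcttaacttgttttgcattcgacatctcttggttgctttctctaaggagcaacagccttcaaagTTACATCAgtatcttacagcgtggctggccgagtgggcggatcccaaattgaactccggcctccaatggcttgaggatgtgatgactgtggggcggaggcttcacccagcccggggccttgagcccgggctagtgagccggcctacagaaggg
Of 24 tested genes of the response with a window 7 held the element on either strand (29.2%), namely Trib3, Chac1, Pck2, Asns, Slc1a4, Nupr1 and Herpud1, against 4.51% of all genes with a window and 3.97% of all windows. In the sarcomere genes it was 2 of 23 (8.70%). The list was drawn up from textbook roles, and all genes with a window include genes not tested here. These matches, too, describe only the letters of the windows.

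The fall reached several steps of amino acid metabolism. Mthfd2, a mitochondrial enzyme of one-carbon metabolism, had 529, 603 and 469.8 at 6 hours, against 1598, 1474 and 1592 on Day -1 (-1.55 ± 0.12, adjusted p = 0.00037). Atf4 itself had 1376, 1721 and 1304 at 6 hours, against 2586, 2296 and 2427 on Day -1 (-0.74 ± 0.13, adjusted p = 0.013), and Asns, asparagine synthetase, had 1021, 804 and 990.5 at 6 hours, against 1442, 1570.4 and 1482 on Day -1 (-0.68 ± 0.12, adjusted p = 0.014). Neither overlapped between the groups. The call of Atf4 was lost without 6 hours replicate 1 or 3 or Day -1 replicate 1 or 3 (adjusted p between 0.051 and 0.070), and that of Asns lost without Day -1 replicate 3 (adjusted p = 0.067). The transporters of the list that fell were Slc7a1 (-1.27), Slc1a5 (-1.26), Slc7a5 (-0.92), Slc1a4 (-0.83) and Slc3a2 (-0.65), which import cationic, neutral and large amino acids, and the serine enzymes were Psph (-1.11), Shmt2 (-0.60) and Psat1 (-0.53). The call of Slc7a5 was lost without 6 hours replicate 1 (adjusted p = 0.062), that of Slc1a4 lost without 6 hours replicate 1 or Day -1 replicate 1 (adjusted p between 0.072 and 0.10), that of Shmt2 lost without 6 hours replicate 1 or Day -1 replicate 3 (adjusted p = 0.055 each) and that of Psat1 lost without any 1 array but 6 hours replicate 2 (adjusted p between 0.064 and 0.13). Phgdh, the first enzyme of serine synthesis, had 958, 997 and 956 at 6 hours, against 856, 842 and 900.4 on Day -1 (0.16, adjusted p = 0.33). Slc38a2, a glutamine transporter, was at 0.20 (adjusted p = 0.46) and the stress factor Ddit3 at -0.42 (adjusted p = 0.29).

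Of 18 aminoacyl-tRNA synthetases 6 fell (33.3%, beside 5.53% of all genes) and none rose, with a median of -0.41. Of the 18, 13 lay wholly lower (72.2%, beside 17.8%). Cars, which charges cysteine and is also listed under the ATF4 response, had 304, 250.1 and 281 at 6 hours, against 563, 710.4 and 629 on Day -1 (-1.19 ± 0.13, adjusted p = 0.0017). Aars, which charges alanine, had 1226, 1149.8 and 1308 at 6 hours, against 2062, 2399.5 and 2001 on Day -1 (-0.81 ± 0.12, adjusted p = 0.0055). Yars, which charges tyrosine, changed by -0.80 ± 0.11, adjusted p = 0.0044. The first 2 did not overlap between the groups, and the count of 6 was 3 without 6 hours replicate 1 or Day -1 replicate 3. Chaperones of the endoplasmic reticulum, which answer to protein misfolding there, did not follow this direction: of 21 tested, 1 rose and 1 fell, 20 had a positive log2 fold change and the median was 0.32, a size at which the added control RNAs also shifted. The rise was Hspa5, which passed on 1 of 3 probe sets, and the fall was Herpud1, with 294, 315 and 334 at 6 hours, against 492, 480.2 and 498 on Day -1 (-0.64 ± 0.10, adjusted p = 0.0082), a call lost without 6 hours replicate 1 or Day -1 replicate 3 (adjusted p between 0.051 and 0.055). The count of 1 that rose was 7 without 6 hours replicate 2.

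Genes of mitosis fell in part, by small amounts. Of 58 tested, 18 fell (31.0%, beside 5.53% of all genes) and none rose, the median was -0.39, and 42 lay wholly lower at 6 hours (72.4%, beside 17.8%). Ncapg, a condensin subunit, had 304, 267 and 276 at 6 hours, against 618, 559 and 644 on Day -1 (-1.10 ± 0.11, adjusted p = 0.0011). Foxm1, the factor that drives genes of the G2 phase, had 113, 133 and 124 at 6 hours, against 194, 234 and 181 on Day -1 (-0.71 ± 0.13, adjusted p = 0.015). The groups were separate in both, but the call of Foxm1 was lost without 6 hours replicate 1 or 3 (adjusted p between 0.051 and 0.077). Ect2 at 0.04 (adjusted p = 0.89) and Bub3 at 0.18 (adjusted p = 0.44) were the members with a log2 fold change above 0. The count of 18 was 1 without 6 hours replicate 1 or 3, 4 without Day -1 replicate 1, 9 without Day -1 replicate 2 and 2 without Day -1 replicate 3.

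Of 51 tested genes of DNA replication 2 fell (3.92%, beside 5.53% of all genes) and none rose, with a median of -0.25, and 11 lay wholly lower (21.6%, beside 17.8%), shares near those of all genes. Dbf4, the activator of the kinase that fires origins, had 952, 1053 and 1036 at 6 hours, against 1541, 1642 and 1509.7 on Day -1 (-0.63 ± 0.10, adjusted p = 0.0091), a call lost without 6 hours replicate 1 (adjusted p = 0.060). Its kinase Cdc7 was at -0.50 ± 0.13, adjusted p = 0.047, lost without any 1 of the 6 arrays (adjusted p between 0.053 and 0.14). The count of 2 was 0 without 6 hours replicate 1, 8 without 6 hours replicate 2 and 1 without 6 hours replicate 3 or Day -1 replicate 1 or 3. Only 1 of 6 tested core and linker histones passed, H1f2, which rose by 1.36 ± 0.14, adjusted p = 0.0014.

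Cyclins D, which drive the G1 phase, differed in direction. Ccnd2, a cyclin D, had 189.7, 193 and 188 at 6 hours, against 500.1, 401 and 472 on Day -1 (-1.26 ± 0.12, adjusted p = 0.00076), and all 4 of its probe sets passed. Ccnd1, the cyclin D that serum induces, had 875, 1037 and 749 at 6 hours, against 1535, 1291 and 1456 on Day -1 (-0.70 ± 0.14, adjusted p = 0.023), a call lost without 6 hours replicate 1 or 3 or Day -1 replicate 1 or 3 (adjusted p between 0.074 and 0.10). Ccnd3, the cyclin D that persists in myotubes, had 1459, 1627 and 1490.3 at 6 hours, against 971, 871 and 992 on Day -1 (0.69 ± 0.11, adjusted p = 0.0076). All 3 sets of arrays were separate, 2 lower and 1 higher. Of 22 tested regulators of the G1 and S phases 6 fell (27.3%, beside 5.53% of all genes) and 1 rose (4.55%, beside 7.04%), with a median of -0.20. The count of 1 was 2 without 6 hours replicate 2, and the 6 were 1 without 6 hours replicate 1 or 3 or Day -1 replicate 1 or 3. E2f5 (-0.59 ± 0.10, adjusted p = 0.012) was lost without 6 hours replicate 1 or 3 or Day -1 replicate 1 or 3 (adjusted p between 0.053 and 0.070), and E2f6 (-0.50 ± 0.10, adjusted p = 0.017) was lost without 6 hours replicate 1 or 3 or Day -1 replicate 1 or 3 (adjusted p between 0.051 and 0.092).

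Of 14 tested CDK inhibitors and related genes 3 rose (21.4%, beside 7.04% of all genes) and none fell, with a median of 0.37. Cdkn1a, the inhibitor p21 that myogenic factors induce, had 612, 824 and 620.1 at 6 hours, against 457, 298 and 395 on Day -1 (0.85 ± 0.19, adjusted p = 0.029), a call lost without 6 hours replicate 1 or 3 or Day -1 replicate 2 or 3 (adjusted p between 0.052 and 0.10). Btg2, an antiproliferative gene, rose by 0.93 ± 0.20, adjusted p = 0.027, lost without 6 hours replicate 1 or Day -1 replicate 1, 2 or 3 (adjusted p between 0.050 and 0.10). Ccng2, a cyclin of arrested cells, rose by 0.61 ± 0.10, adjusted p = 0.0090, lost without 6 hours replicate 1 (adjusted p = 0.059). In each the 6 hours arrays were all above the Day -1 arrays. The count of 3 was 0 without 6 hours replicate 1, 5 without 6 hours replicate 2 and 1 without Day -1 replicate 2 or 3. Among 12 tested p53 targets, which include Cdkn1a and Btg2, 3 rose, beside 7.04% of all genes, and none fell, with a median of 0.35. Those 3 rises were 1 without 6 hours replicate 1 or Day -1 replicate 3 and 5 without 6 hours replicate 2.

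Some genes listed under ERK feedback and the FGF response fell, and the activity of ERK itself was not measured. Of 12 tested genes of this list 7 fell (58.3%, beside 5.53% of all genes) and none rose. For 2 of the 12, Etv5 and Spred2, the mean was under 100 at 6 hours, so they had to be lower there. Ccnd1, described above, also belongs to this list. The median was -0.48, and 10 lay wholly lower (83.3%, beside 17.8%). Hmga2, a chromatin protein of growing cells, had 554, 521 and 498 at 6 hours, against 866, 888 and 905 on Day -1 (-0.76 ± 0.10, adjusted p = 0.0038), on 3 of 3 probe sets. Spred2, an inhibitor of RAS signalling that ERK induces, changed by -0.68 ± 0.13, adjusted p = 0.020, lost without 6 hours replicate 1 (adjusted p = 0.093). Etv5, an ETS factor (-0.94 ± 0.22, adjusted p = 0.034), Dusp4, a phosphatase of ERK (-0.61 ± 0.16, adjusted p = 0.048), and Fgfr1, an FGF receptor (-0.45 ± 0.11, adjusted p = 0.041), fell too. The calls were lost without any 1 array but 6 hours replicate 2 (adjusted p between 0.054 and 0.12) for Etv5, lost without any 1 array but 6 hours replicate 2 (adjusted p between 0.062 and 0.13) for Dusp4 and lost without any 1 array but 6 hours replicate 2 (adjusted p between 0.068 and 0.16) for Fgfr1. Spry2 was at 0.29 (adjusted p = 0.44) and Dusp6 at -0.09 (adjusted p = 0.59). The count of 7 was 1 without 6 hours replicate 1 or Day -1 replicate 1, 2 without 6 hours replicate 3 or Day -1 replicate 3 and 4 without Day -1 replicate 2.

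Immediate early genes, which serum induces within the hour, went both ways. Of 26 tested 5 rose (19.2%, beside 7.04% of all genes) and 4 fell (15.4%, beside 5.53%), with a median of 0.03. Egr1, a zinc finger factor, had 646, 911 and 769 at 6 hours, against 434, 458 and 352 on Day -1 (0.90 ± 0.16, adjusted p = 0.013), a call lost without Day -1 replicate 3 (adjusted p = 0.067), and Egr3, of the same family, had 122, 127 and 183 at 6 hours, against 49.1, 59.2 and 57.4 on Day -1 (1.36 ± 0.17, adjusted p = 0.0032). Fosl1, an AP-1 subunit, had 221, 265 and 219 at 6 hours, against 428, 382 and 496 on Day -1 (-0.89 ± 0.14, adjusted p = 0.0073). Atf3, a factor of both the serum and the stress response, had 157, 189 and 161 at 6 hours, against 416, 345 and 343 on Day -1 (-1.12 ± 0.13, adjusted p = 0.0021). These groups did not overlap in either direction. Maff fell, at -1.35 ± 0.18, adjusted p = 0.0044, and Ier5 changed by 0.47 ± 0.10, adjusted p = 0.024, a call lost without any 1 array but 6 hours replicate 2 (adjusted p between 0.054 and 0.10). The 5 that rose were 2 without 6 hours replicate 1 or Day -1 replicate 1, 3 without 6 hours replicate 3 or Day -1 replicate 2 and 1 without Day -1 replicate 3, and the 4 that fell were 8 without 6 hours replicate 2.

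Some of the largest falls, all those given here but Pparg, a marker of the adipocyte list, belonged to no list. Nefm, the medium neurofilament subunit, had 290.3, 259 and 249.7 at 6 hours, against 1424, 1440.2 and 1392 on Day -1 (-2.42 ± 0.10, adjusted p = 3.7e-05). Nefl, the light subunit, had 759, 541 and 596 at 6 hours, against 2621, 2811 and 2489.7 on Day -1 (-2.08 ± 0.14, adjusted p = 0.00021), on 2 of 2 probe sets. Dkk2, a secreted regulator of WNT signalling, had 55.5, 46.4 and 65.0 at 6 hours, against 249.8, 279.7 and 231 on Day -1 (-2.20 ± 0.15, adjusted p = 0.00017). In all 3 the highest 6 hours array stood far below the lowest Day -1 array. Slc14a1, a urea transporter, had 108, 77.8 and 88.8 at 6 hours, against 374, 427 and 383 on Day -1 (-2.12 ± 0.14, adjusted p = 0.00017). Sprr1a, a stress-induced protein first known from keratinocytes, had 263, 389 and 189.5 at 6 hours, against 1375, 878 and 1156 on Day -1 (-2.06 ± 0.27, adjusted p = 0.0038). Pparg, the master regulator of adipocytes, had 94.8, 106 and 85.9 at 6 hours, against 209, 211 and 210.0 on Day -1 (-1.14 ± 0.11, adjusted p = 0.0010). The groups stood apart in these too. The other large falls were Add2, a membrane skeleton protein (-2.05 ± 0.18, adjusted p = 0.00055), Gsta2, a glutathione transferase (-1.49 ± 0.16, adjusted p = 0.0014), Tshz1 (-1.38 ± 0.30, adjusted p = 0.026), Pag1 (-1.35 ± 0.23, adjusted p = 0.012) and Pde4b, a phosphodiesterase (-1.29 ± 0.26, adjusted p = 0.021). The call of Tshz1 was lost without 6 hours replicate 1 or 3 or Day -1 replicate 1 or 3 (adjusted p between 0.068 and 0.11), that of Pag1 lost without Day -1 replicate 3 (adjusted p = 0.068) and that of Pde4b lost without 6 hours replicate 1 or 3 or Day -1 replicate 1 or 3 (adjusted p between 0.061 and 0.092).

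Metabolic lists held few calls. Of 24 tested genes of oxidative metabolism none passed, 22 had a positive log2 fold change and the median was 0.14, with 3 higher at an unadjusted p under 0.05 by limma. None of 14 tested genes of fatty acid synthesis passed, with a median of 0.02 and 2 higher and 1 lower at an unadjusted p under 0.05 by limma, and of 17 genes of cholesterol synthesis 1 fell, with a median of 0.08. That gene was Stard4, a sterol carrier, at -0.68 ± 0.15, adjusted p = 0.032, lost without any 1 array but 6 hours replicate 2 (adjusted p between 0.066 and 0.13). Without 6 hours replicate 2, 3 genes of each of both lists rose. Enzymes of the mevalonate route did not pass, with 0.53 for Hmgcs1 (adjusted p = 0.062) and 0.41 for Idi1 (adjusted p = 0.078). Of 16 tested glycolytic genes 1 rose (6.25%, beside 7.04% of all genes) and 2 fell (12.5%, beside 5.53%), with a median of -0.04. The count of 1 was 0 without 6 hours replicate 1 or Day -1 replicate 3 and 2 without 6 hours replicate 2, and that of 2 was 1 without 6 hours replicate 1 or Day -1 replicate 1, 2 or 3. Slc2a1, the glucose transporter of growing cells, had 956, 828 and 1000.5 at 6 hours, against 1529, 1534 and 1503 on Day -1 (-0.72 ± 0.11, adjusted p = 0.0072), with no overlap. Hk2, a hexokinase, was at -0.72 ± 0.17, adjusted p = 0.039, lost without 6 hours replicate 1 or Day -1 replicate 1, 2 or 3 (adjusted p between 0.077 and 0.13). Pfkm, the phosphofructokinase of muscle, was at 0.65 ± 0.11, adjusted p = 0.011, lost without 6 hours replicate 1 or Day -1 replicate 3 (adjusted p between 0.059 and 0.060).

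Of 42 tested genes of ribosome biogenesis 4 fell (9.52%, beside 5.53% of all genes) and none rose. The median was -0.27, and 22 lay wholly lower (52.4%, beside 17.8%). The count of 4 was 1 without 6 hours replicate 1 or 3 or Day -1 replicate 1 or 3. Among 25 genes regulated by FOXO and insulin 4 rose and 3 fell, beside 7.04% and 5.53% of all genes, with a median of 0.04. The count of 4 was 1 without 6 hours replicate 1, 8 without 6 hours replicate 2 and 2 without Day -1 replicate 3, and that of 3 was 1 without 6 hours replicate 1 or 3 or Day -1 replicate 1. Fbxo32, the ubiquitin ligase of muscle atrophy, rose by 1.31 ± 0.15, adjusted p = 0.0025, and Klf9 fell, at -0.81 ± 0.13, adjusted p = 0.0095. Of 14 tested targets of NRF2 2 rose and 2 fell (14.3% each, beside 7.04% and 5.53% of all genes). The rises were 1 without 6 hours replicate 1 or 3 or Day -1 replicate 2 and 0 without Day -1 replicate 3, and the falls 1 without 6 hours replicate 1 or Day -1 replicate 3. Those that rose were the metallothioneins Mt2 (1.20 ± 0.19, adjusted p = 0.0088), lost without Day -1 replicate 3 (adjusted p = 0.055), and Mt1 (0.84 ± 0.21, adjusted p = 0.047), lost without 6 hours replicate 1 or 3 or Day -1 replicate 2 or 3 (adjusted p between 0.085 and 0.17), and Gclm, of glutathione synthesis, fell, at -0.86 ± 0.14, adjusted p = 0.0088. Of 15 hypoxia-inducible genes 3 fell (20.0%, beside 5.53% of all genes), among them Ero1a (-0.79 ± 0.11, adjusted p = 0.0047). None rose, a count that was 4 without 6 hours replicate 2. Cytosolic heat shock proteins had 1 rise in 17, which was 0 without 6 hours replicate 1 or 3 or Day -1 replicate 1 or 3, and 1 fall, which was 0 without 6 hours replicate 1 or 3 or Day -1 replicate 1 or 2 and 4 without 6 hours replicate 2. The circadian clock had 1 fall in 7, which was 2 without 6 hours replicate 2 and 0 without 6 hours replicate 3 or Day -1 replicate 1 or 3. None of 3 tested genes of the interferon response passed, nor at an unadjusted p under 0.05 by limma, and none of 5 insulin-like growth factors and binding proteins passed, with 2 higher at an unadjusted p under 0.05 by limma, and the count of rises was 1 without 6 hours replicate 2 or Day -1 replicate 2.

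Day 0, the confluent culture before the low-serum medium, lies between both groups in time, and its arrays describe where a gene stood before the medium change. Both neighbours in time share arrays with this comparison, so the positions are given as levels without a test. Of the 508 higher genes 179 (35.2%) had a Day 0 mean above that of 6 hours, 224 (44.1%) a Day 0 mean between the groups and 105 (20.7%) a Day 0 mean below that of Day -1. Of the 399 lower genes 152 (38.1%) had a Day 0 mean below that of 6 hours, 148 (37.1%) one between the groups and 99 (24.8%) one above that of Day -1.

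Muscle genes belonged mostly to those already high on Day 0. The 3 Day 0 arrays of Myog read 2698, 2577 and 2588, those of Acta1 5102, 5316 and 4659 and those of Mymk 881, 933 and 889. Of 28 sarcomere genes 20 had a Day 0 mean above that of 6 hours, and the median log2 ratio of Day 0 to Day -1 over them was 3.38, against 2.80 for 6 hours. These levels were thus reached or passed on Day 0, before serum was lowered, in most sarcomere genes tested. Mitotic genes were also low on Day 0, where the mean was under that of Day -1 in 58 of 58, and in 53 of them 6 hours stood between Day 0 and Day -1. Ncapg read 194, 196 and 179 on Day 0, and Nefm 141, 140.1 and 153.

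Genes of the amino acid response went the other way. Day 0 was above Day -1 in 27 of the 28 and in all 23 that fell, and the median log2 ratio of Day 0 to Day -1 was 0.91, against -0.83 for 6 hours. Trib3 read 591, 621 and 613 on Day 0, Chac1 1034, 1025 and 1072 and Atf4 3779.9, 4455 and 4414. Of the 17 genes of cholesterol synthesis all were below Day -1 on Day 0, with a median log2 ratio of -1.01, whereas at 6 hours it was 0.08, with 6 hours between Day 0 and Day -1 in 7 of them. Matrix genes had a median of -0.32 on Day 0, and 11 of the 16 that rose at 6 hours had a Day 0 mean below that of Day -1. Postn read 9.98, 13.9 and 10.5 and Ltbp2 57.5, 52.7 and 42.0 on Day 0. In those 23 genes of the amino acid response and 11 matrix genes, Day 0 and 6 hours thus lay on opposite sides of Day -1.

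**Figure D4:**
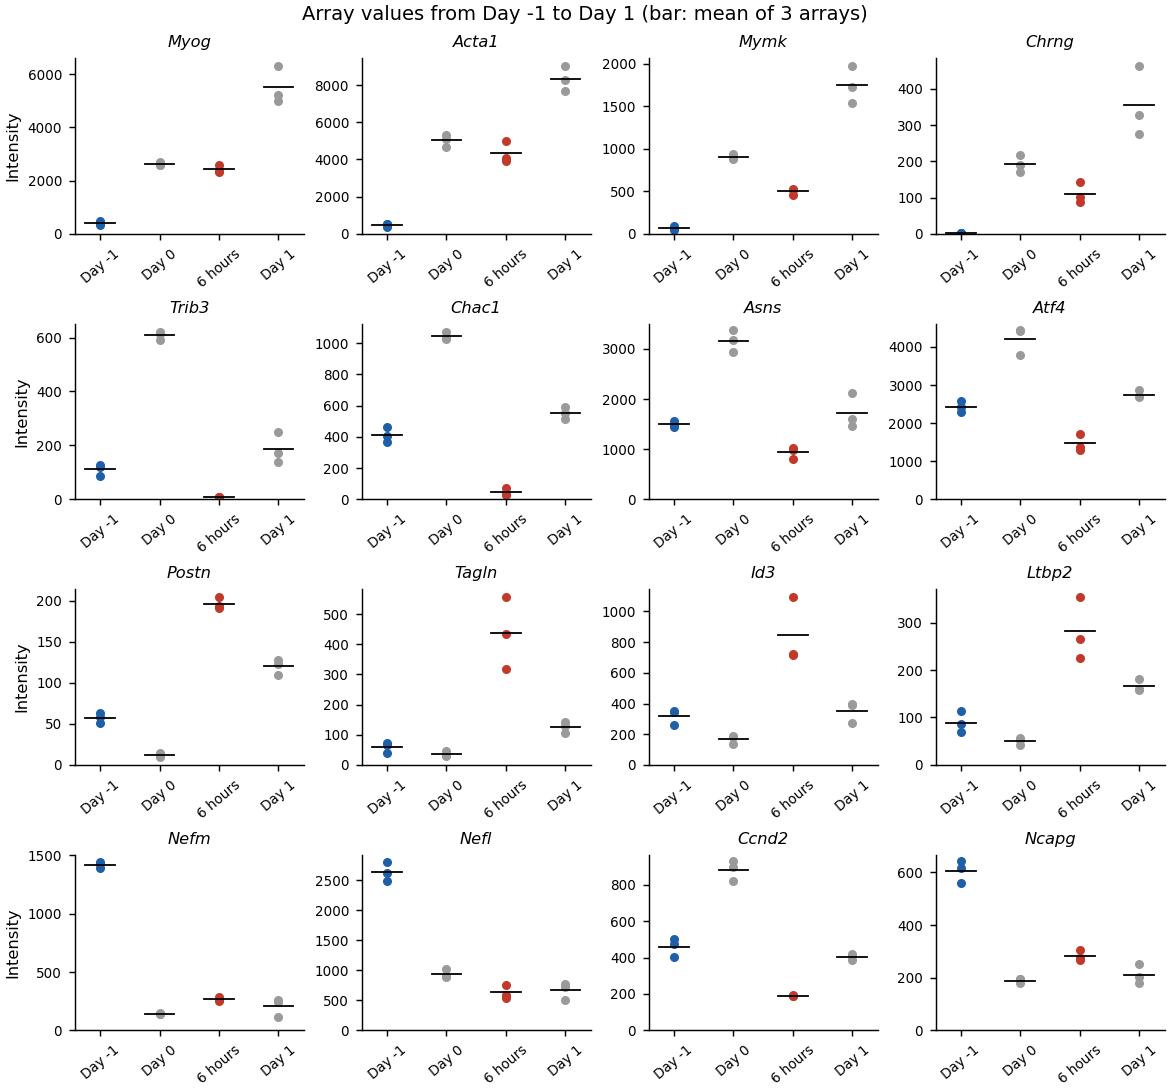
Each panel shows the intensity of 1 gene (y axis, linear from 0) on the 3 arrays of Day -1, Day 0, 6 hours and Day 1, with a bar at the mean. Genes of the top row are high from Day 0 on, those of the second row peak on Day 0 and are lowest at 6 hours, and those of the third row peak at 6 hours, as Postn does at 191 to 204.

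Comparisons without shared arrays show where the genes went later. Of 482 genes higher at 6 hours and tested on Day 5 against Day 0, 282 (58.5%) were higher on Day 5 and 75 (15.6%) lower, against 22.2% and 38.2% of all 6819 genes tested in both. Of 325 genes lower at 6 hours 195 (60.0%) were lower on Day 5 and 34 (10.5%) higher. Leaving out replicate 2 of each time point gave 32.9% of 1855 genes higher on Day 5, against 14.7% of all, and leaving out replicate 3 gave 89.1% of 64 genes, against 22.8% of all. Of 489 genes higher at 6 hours and tested on Day 2 against Day 1, 198 (40.5%) were higher and 69 (14.1%) lower. Over all 6803 genes these shares were 15.7% and 18.1%. Of 310 lower genes 102 (32.9%) were lower on Day 2, against 18.1% of all, and 61 (19.7%) higher, against 15.7%. Their median log2 fold change was -0.11. Without replicate 3, 81.5% of 65 higher genes were higher on Day 2, against 7.24% of all. Without replicate 1, 3.23% of 31 lower genes were lower on Day 2, against 2.53% of all. Postn (log2 fold change of 6.31), Tagln (4.73) and Id3 (2.76) were higher on Day 5 than on Day 0, with adjusted p of 5.3e-07, 1.4e-06 and 6.6e-06, and Ncapg was lower (-4.25, adjusted p = 3.6e-07).

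**Figure D5:**
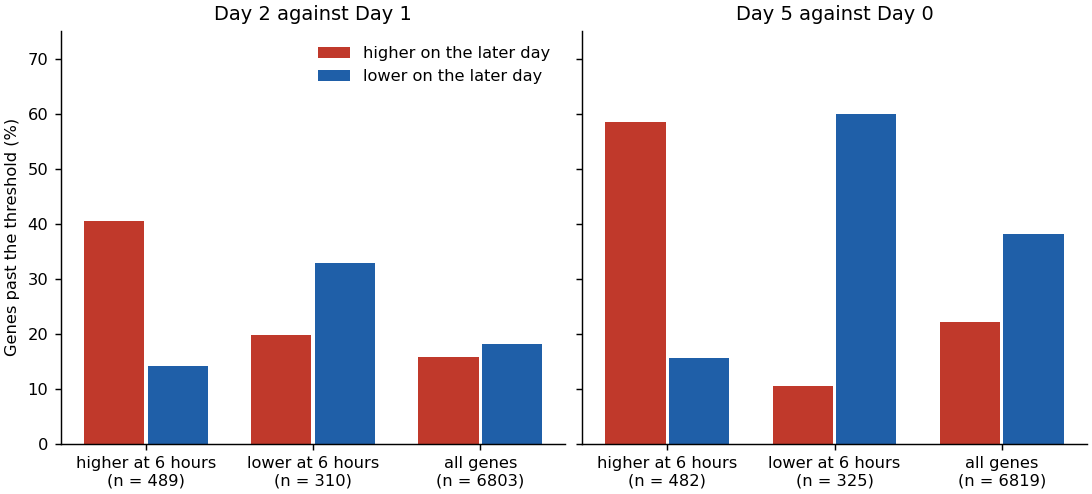
Bars give the percent of genes past the threshold on Day 2 against Day 1 (left) and on Day 5 against Day 0 (right), red for higher and blue for lower on the later day, for genes higher at 6 hours, genes lower at 6 hours and all genes tested. Genes higher at 6 hours have the tallest red bar in both panels, 40.5% and 58.5%, and genes lower at 6 hours the tallest blue bar, 32.9% and 60.0%.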

How the data were processed

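RNA of C2C12 cells was hybridized to Affymetrix mouse 430 version 2 arrays. The table deposited by the authors gives intensity on a linear scale, obtained with GC-RMA, raised to base 2 and scaled to a trimmed mean. The submitters' processing notes name GCRMA and MAS5. After trimming 2% at each end, array means were 145 to 156. The sample labels gave groups and replicate numbers. A moderated t of limma 3.58.1 (R 4.3.3) compared log2 intensities of the 6 arrays where either group averaged 100 or more, and p-values were adjusted by Benjamini-Hochberg with a threshold of 0.05. Of 45101 probe sets 34958 have 1 gene in the array annotation, and symbols are those of that annotation. A gene is given by its probe set of largest absolute moderated t. The genes named are the 12 largest rises and falls among called genes with a mean of at least 200 in the higher group, each tested myogenic regulator and inhibitor, and up to 6 members of each list, the 3 with the lowest p each way. Other genes named were chosen with their values seen, among them Atf4, Asns, Myh3, Myl9, Etv5, Dusp4, Fgfr1, the integrins, the amino acid transporters and serine enzymes, and members given as not passing. Members and lists were chosen with earlier results of these data known. Day 5 was compared with Day 0 and Day 2 with Day 1 in the same way. Alternatives were other sets of arrays, a level of 200 or none, quantile normalization, a floor of 50, log2(value + 16), a trend in the prior, the probe set with the highest mean, the replicate number as a block, and leaving out each array. The test was checked on simulated data. Promoter windows came from RefSeq.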

Additional observations from a re-analysis of the deposited data

How the results depend on the processing

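The number of called genes depended on how the spread was estimated. Among the 214 genes chosen by the naming rule, none past the threshold changed direction under any alternative run. The other genes named were not part of that count. Of 907 genes in the main result, the counts were 1504 in 1 fit of all 24 arrays and 1527 in 1 fit with Day 0. For higher genes they were 856 and 820 in place of 508, and for lower genes 648 and 707 in place of 399. By probe set they were 2051 and 2073 in place of 1236, 1191 and 1131 in place of 711 higher, and 860 and 942 in place of 525 lower. Leaving out 1 array gave 337 to 1730 genes (200 to 923 higher, 136 to 807 lower) and 435 to 2389 probe sets (262 to 1317 higher, 173 to 1072 lower). Leaving out both 6 hours replicate 2 and Day -1 replicate 1, chosen after seeing the data because these arrays deviate together, gave 1126 genes, 603 higher and 523 lower. The replicate numbers do not pair the arrays: deviations of same-numbered arrays correlated at -0.60, -0.81 and -0.34. With the replicate number as a block 224 genes passed (143 higher, 81 lower), as did 290 probe sets (185 higher, 105 lower), and the share of lower genes with Day 0 beyond 6 hours was 22.2%. Of the 214 genes chosen by the naming rule 115 passed, 67 of them in every fit without 1 array in which they were tested. Chrng was not tested without 6 hours replicate 3. Leaving out a replicate number of each time point, the share of genes higher at 6 hours that was also higher on Day 5 lay between 32.9% and 89.1%, the share higher on Day 2 between 27.4% and 81.5%, and the share of lower genes that was lower on Day 2 between 3.23% and 45.9%. Log2 fold changes near 0, none of them called, turned sign with single arrays left out for Zeb2 (range -0.023 to 0.18), Bhlhe40 (-0.092 to 0.050), Ect2 (-0.047 to 0.17), Bop1 (-0.055 to 0.052), Smad5 (-0.25 to 0.082), Ifit2 (-0.14 to 0.052) and Tpm3 (-0.024 to 0.22). They turned without both arrays for Bhlhe40 (0.031) and Bop1 (-0.0018), with quantile normalization for Bop1 (-0.019), and with the probe set of highest mean for Zeb2 (-0.018), Tpm3 (-0.047), Phgdh (-0.0043), Hspb8 (-0.0044), Clock (0.075) and Ifi35 (0.16). The cause was not tested. In simulated data with the spread of these 12414 probe sets the test found 17 of 67 changes of 0.5 (log2). It found 39 of 67 changes of 1 and 61 of 66 of 2, so small changes were missed there with 3 arrays a group. The simulated noise was independent between probe sets and 12214 of them were left unchanged, whereas 9.96% were called in these data. The shares found need not hold for these arrays.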

Other observations

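A set of genes stood beyond both neighbours at 6 hours, with all 3 Day 0 arrays on the far side of all 3 Day -1 arrays. It held 61 of the 508 genes that rose, 7 of them in the matrix list, and 67 of the 399 that fell, 21 of them in the ATF4 list. The genes named here were picked from it with their values known and are given as levels. Glipr1, a secreted CAP domain protein, averaged 225 ± 50.7 at 6 hours, against 47.3 ± 11.8 on Day -1 (SD, n = 3 each), and 14.5 on Day 0. Mest, an imprinted gene of growing mesoderm, averaged 175 ± 24.8 at 6 hours, against 48.1 ± 8.50 on Day -1, and 6.25 on Day 0. Adamts4, a protease of proteoglycans, averaged 526 ± 86.6 at 6 hours, against 174 ± 24.1 on Day -1, and 115 on Day 0. By the choice of the set these 3 were all higher at 6 hours than at either earlier time. Glipr1 and Mest, under 100 on Day -1, were tested only through 6 hours.

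On the lower side Cth, which makes cysteine from cystathionine, averaged 30.1 ± 12.7 at 6 hours, against 123 ± 4.55 on Day -1, and 1431 on Day 0. Csn3, a milk casein gene, averaged 9.45 ± 2.26 at 6 hours, against 114 ± 34.6 on Day -1, and 250.1 on Day 0. Lims2, an adaptor of integrin adhesions, averaged 34.9 ± 4.00 at 6 hours, against 186 ± 10.8 on Day -1, and 293 on Day 0. By the same choice each of them was lower at 6 hours than at either earlier time. Cth, Csn3 and Lims2, under 100 at 6 hours, were tested only through Day -1. The 6 hours values of Csn3 and Cth lie near background, where a fold depends on that background.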
